A study of Bos taurus with 15 samples.

Results

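The small leucine-rich proteoglycans examined here are 8 secreted matrix proteins, chosen by gene symbol: decorin (DCN), biglycan (BGN), asporin (ASPN), lumican (LUM), fibromodulin (FMOD), prolargin (PRELP), osteomodulin (OMD) and osteoglycin (OGN). They were chosen with earlier results of these data known, so their counts beside those of all tested genes are descriptions only. All 8 were found once each among the 38001 genes of the table, and all 8 were among the 11834 genes with enough counts to be tested. The series holds 15 RNA libraries from engineered tissues of bovine meniscal fibrochondrocytes, the matrix-forming cells of the knee meniscus, taken on day 28. Tissues cast in 3D-printed molds with post anchors gave the anchored post and anchored middle groups, tissues cast in molds without anchors gave the unanchored post and unanchored middle groups, and cells in collagen with no mold gave the last group, with 3 libraries in each of the 5 groups. Post and middle are the regions into which a molded tissue was cut before RNA was taken from pieces of it.

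All 5 groups shared their medium: 3 days in growth medium with 10% fetal bovine serum, then 25 days in chondrogenic medium with ascorbic acid at 50 µg/ml, dexamethasone and TGF-β3 at 10 ng/ml. There was therefore no library without TGF-β3 or dexamethasone. The labels do not say whether the 3 libraries of a group came from separate tissues or animals, so a p-value here weighs a difference against library-to-library spread that could be purely technical. In bulk RNA, a lower share of cells that make a transcript and less of it per cell cannot be told apart.

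Small leucine-rich proteoglycans have a curved core of leucine-rich repeats that binds collagen, and they set how fibrils assemble, how thick they grow and how far apart they lie. Most carry sugar chains: chondroitin or dermatan sulfate on decorin and biglycan, keratan sulfate on lumican, fibromodulin and osteomodulin. Several also bind growth factors, above all TGF-β and bone morphogenetic proteins. In the meniscus and other fibrous tissues they accompany the type I collagen network, and their makeup differs between fibrous and cartilage-like zones.

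Library totals ran from 2060781 to 7415701 counts. The shallowest libraries were no mold libraries 1 and 3, with 2060781 and 2128257 counts, and anchored middle library 2, with 2986944. All 8 markers of meniscal fibrochondrocytes were tested genes. The 6 endothelial markers summed to between 0.809 and 1.94 CPM (counts scaled to a library total of 1e+06) in a library, and none had enough counts to be tested. Of 6 markers of mural (vessel wall) cells 5 were tested, and their sums ran from 82.1 to 145 CPM, with CSPG4 at a mean of 80.1. Of 6 leukocyte and macrophage markers 1 was tested, with sums from 4.48 to 8.73 CPM. Schwann cell markers summed to at most 0.485 CPM. The adipocyte markers found by symbol (3 of 4) summed to between 319 and 575 CPM in molded libraries and between 275 and 306 CPM in no mold libraries. Most of that sum was FABP4, with a mean of 355 CPM over all libraries, against 34 for LPL and 2.73 for PLIN1. It therefore says little about the number of adipocytes. The part of these markers in the results was not tested.

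Levels are CPM after TMM scaling, which corrects for library composition. The libraries read mainly the 3′ ends of transcripts, so values were not divided by gene length, and comparing 1 gene with another compares counts only. LUM took the most counts, with 41.9% to 54.8% of the summed level of the 8 genes by group mean. DCN took 17.3% to 19% in molded groups and 10.8% in the no mold group. FMOD took 14.4% to 20.3% and BGN 10.1% to 15.5% over the 5 groups. ASPN took 1.30% to 3.42%, and OGN less than ASPN in each group. OMD and PRELP were near the floor of what could be tested, with 212 and 144 counts in all 15 libraries together. The sum of the 8 genes averaged 16070 ± 668 CPM in anchored post, 16337 ± 671 in anchored middle, 16823 ± 426 in unanchored post, 16358 ± 365 in unanchored middle and 15278 ± 907 in no mold libraries (SD, n = 3 each). The largest library of the no mold group, at 16177 CPM, lay inside the molded range, so the sums overlap although single genes moved apart.

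**Figure D1:**
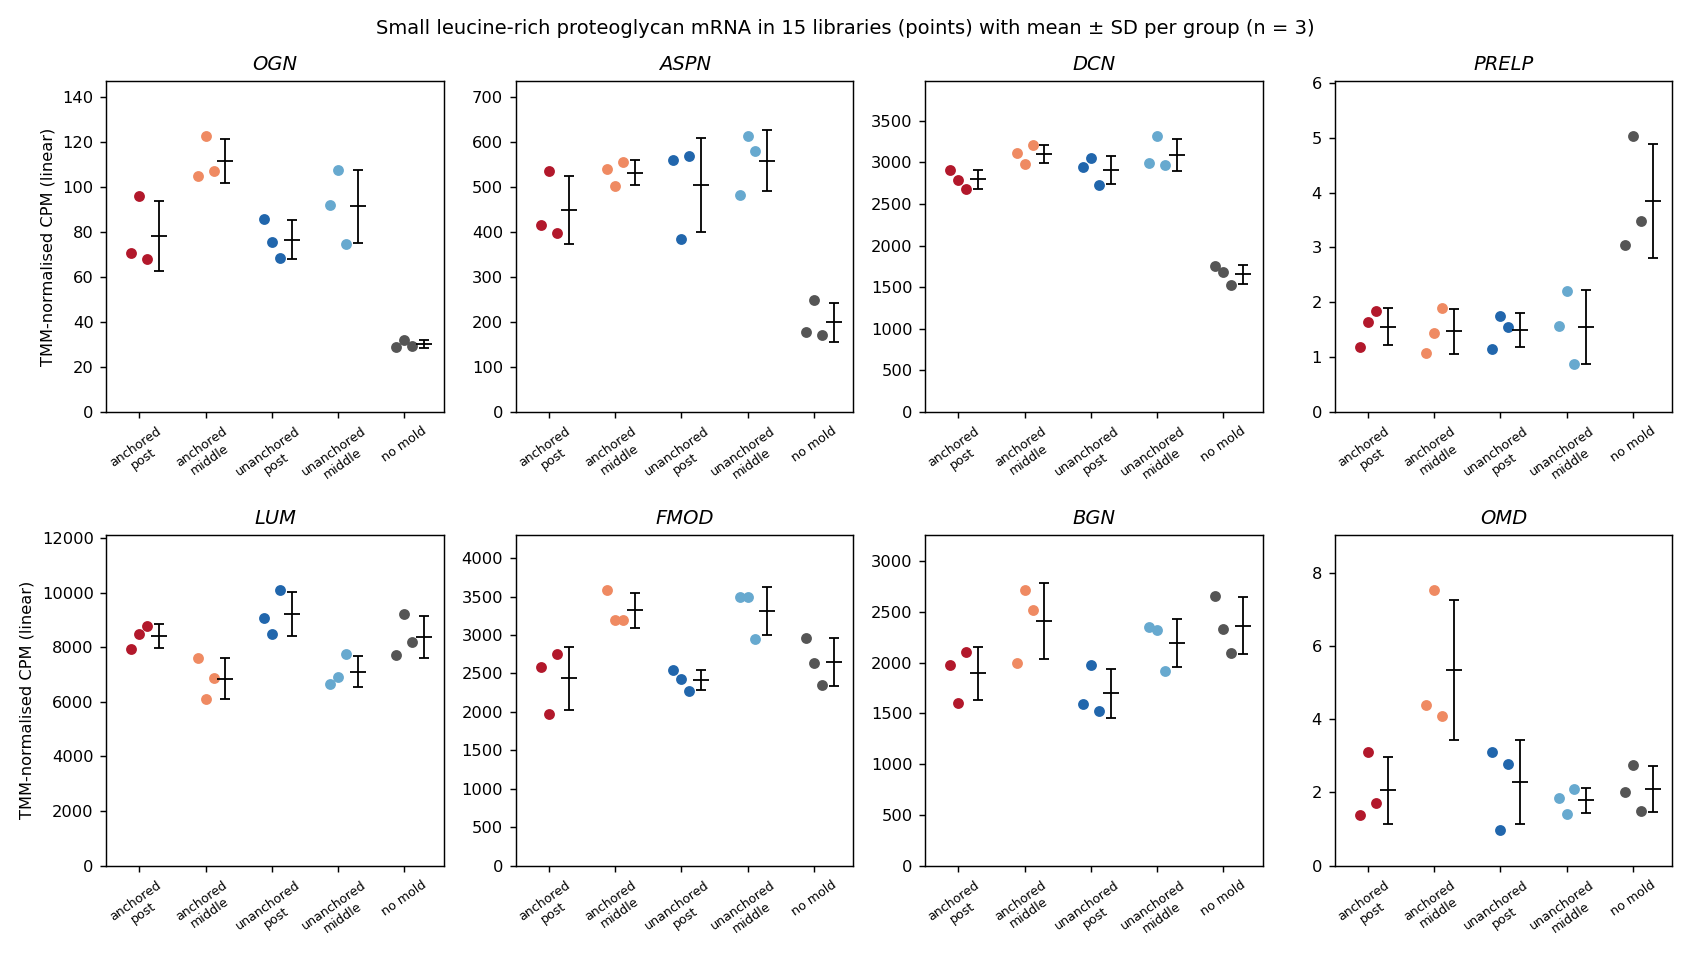
TMM-normalised CPM (linear axes from 0) of the 8 genes in each of the 15 libraries, with the mean and SD of each group of 3 beside the points. OGN, ASPN and DCN lie higher and PRELP lower in all 12 molded libraries than in the 3 no mold libraries, while LUM and FMOD separate the post from the middle libraries.

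The first comparison set all molded tissue against tissue formed with no mold. OGN, ASPN and DCN were higher in molded tissue, by 2.90, 2.53 and 1.80 times, and PRELP was lower, at 0.372 times its level with no mold. LUM, FMOD, BGN and OMD did not pass the threshold. So 3 of the 8 genes were called higher and 1 lower by edgeR at an adjusted p under 0.05, while 8.04% of all tested genes were called higher and 7.91% lower (1888 genes in all). The libraries of 4 of the 8 genes did not overlap between molded and no mold tissue, against 9.93% of all tested genes. The median log2 fold change was 0.135 over the 8 genes and 0 over all tested genes.

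OGN encodes osteoglycin, also called mimecan, a member of class III of the family that shapes collagen fibrils. It reached 70.6, 95.9 and 67.8 CPM in anchored post, 104.8, 122.5 and 107.1 in anchored middle, 85.5, 75.5 and 68.5 in unanchored post, and 92.0, 107.3 and 74.7 in unanchored middle libraries, against 28.9, 32.0 and 29.3 CPM in no mold libraries. The lowest molded library lay above the highest no mold library by more than the whole no mold range. The log2 fold change of molded against no mold tissue was 1.54 (SE 0.138, edgeR adjusted p = 1.58e-07). Against no mold tissue, OGN was 2.57 times as high in anchored post, 3.65 times in anchored middle, 2.52 times in unanchored post and 3.01 times in unanchored middle tissue, each past the threshold.

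ASPN encodes asporin, a class I protein with an aspartate-rich end and no sugar chain of the chondroitin type, known to bind TGF-β and collagen. Its 12 molded libraries ran from 385.3 to 613.7 CPM with a median of 537.4, against 177.7, 250 and 170.7 CPM in no mold libraries. The groups did not overlap. The log2 fold change was 1.34 (SE 0.134, edgeR adjusted p = 5.86e-07).

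DCN encodes decorin, which binds along collagen fibrils, limits their lateral growth and holds TGF-β in the matrix. Its molded libraries ran from 2685 to 3315 CPM with a median of 2974, against 1748, 1687 and 1521 CPM in no mold libraries. The groups did not overlap. DCN averaged 2794 ± 115, 3101 ± 113, 2910 ± 171 and 3091 ± 195 CPM in anchored post, anchored middle, unanchored post and unanchored middle libraries, and 1652 ± 118 CPM in no mold libraries (SD, n = 3 each). The log2 fold change was 0.85 (SE 0.0877, edgeR adjusted p = 8.34e-07).

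PRELP encodes prolargin, a class II protein with a basic end that binds heparan sulfate and is thought to anchor basement membrane to connective tissue. It gave between 0.872 and 2.209 CPM in molded libraries, with a median of 1.558, against 3.04, 5.03 and 3.47 CPM in no mold libraries. Behind these no mold levels stood 6, 22 and 7 counts. The groups did not overlap, and the log2 fold change was -1.43 (SE 0.304, edgeR adjusted p = 0.00241). The call rests on no mold library 2: without it the log2 fold change was -1.08 and the adjusted p 0.12. PRELP exceeded the filter level in 6 libraries, 3 of them no mold libraries, and the other 3 molded libraries.

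The other 4 of the 8 genes showed no call here. LUM encodes lumican, a keratan sulfate proteoglycan that regulates fibril assembly, and FMOD encodes fibromodulin, which binds the same region of collagen and modulates its crosslinking. The edgeR log2 fold change of LUM was -0.10 (SE 0.0974, adjusted p = 0.559) and that of FMOD 0.10 (SE 0.102, adjusted p = 0.564). BGN encodes biglycan, the closest relative of decorin, and had -0.22 (SE 0.108, adjusted p = 0.179). OMD encodes osteomodulin, known from bone and tooth matrix, and had 0.17 (SE 0.398, adjusted p = 0.83). For OMD the error is several times that of the abundant genes, so only a large difference could have been detected at this depth.

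**Figure D2:**
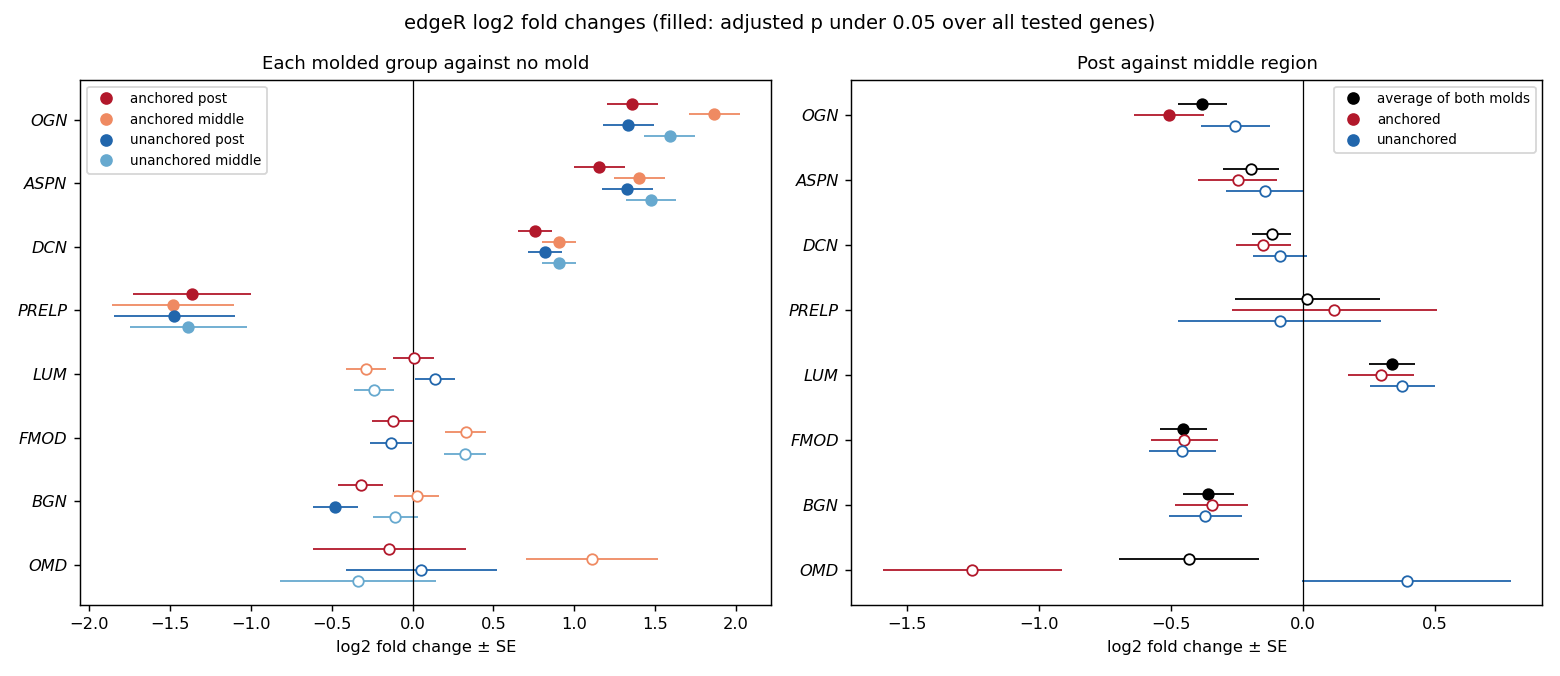
Log2 fold changes with SE from edgeR (x axes) for the 8 genes (rows), with filled points for an adjusted p under 0.05 over all 11834 tested genes. In the left panel OGN, ASPN, DCN and PRELP are filled for all 4 molded groups against no mold, and BGN for unanchored post. In the right panel OGN, FMOD, BGN and LUM are filled for post against middle averaged over both molds, and OGN for anchored tissue.

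Each molded group was also set against the no mold group by itself. These 4 contrasts share the same 3 no mold libraries, so they are not independent of each other. OGN, ASPN and DCN were higher and PRELP was lower in each of them, which made 4 of 8 genes called for anchored post (5.56% of all tested genes), 4 for anchored middle (13.3%) and 4 for unanchored middle tissue (14.8%). In unanchored post tissue 5 of 8 were called (9.02% of all tested genes), because BGN was lower there. BGN averaged 1700 ± 241 CPM in unanchored post and 2365 ± 282 CPM in no mold libraries (SD, n = 3 each), with edgeR's log2 fold change at -0.48 (SE 0.139, adjusted p = 0.0326). That call was lost without unanchored post library 1 or 3, or without no mold library 1 or 2, at adjusted p from 0.0641 to 0.172. The PRELP calls in the separate groups had adjusted p between 0.0108 and 0.0277, and each was lost without no mold library 2, at adjusted p from 0.155 to 0.25. In anchored post tissue PRELP was also called no longer without anchored post library 1 (0.0886), anchored post library 2 (0.0558) or no mold library 3 (0.066). In anchored middle tissue the same held without anchored middle library 1 (0.0678), and in unanchored post tissue without unanchored post library 1 (0.0781).

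Decorin and biglycan are the class I pair that carry chondroitin or dermatan sulfate, and their balance differed between molded and no mold tissue. The ratio of BGN to DCN within a library averaged 0.680 ± 0.104 in anchored post, 0.779 ± 0.135 in anchored middle, 0.583 ± 0.0554 in unanchored post and 0.711 ± 0.0682 in unanchored middle, against 1.43 ± 0.0808 in no mold libraries (SD, n = 3 each). The highest molded library, at 0.911, lay below the lowest no mold library, at 1.38. DCN thus outweighed BGN in counts in every molded library, and BGN outweighed DCN in every no mold library. The ratio does not depend on library scaling, since both genes share the library's factor.

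**Figure D3:**
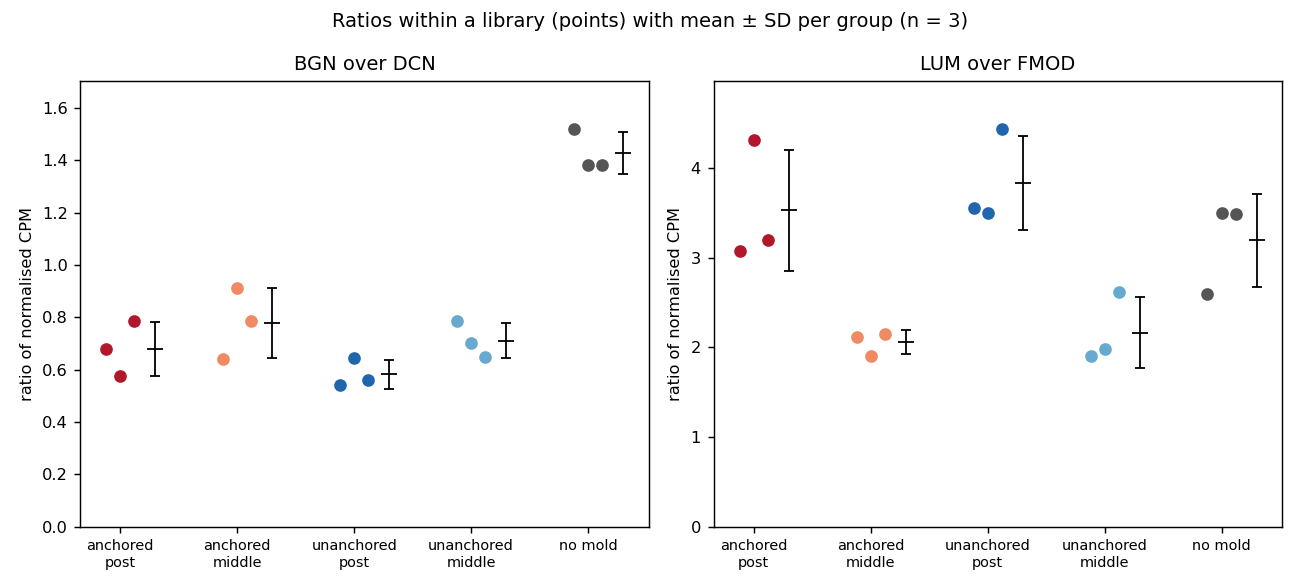
Ratio of BGN to DCN (left) and of LUM to FMOD (right) in each of the 15 libraries, on linear axes from 0, with group mean and SD of 3 libraries. The BGN to DCN ratio lies between 0.542 and 0.911 in molded and between 1.38 and 1.52 in no mold libraries, and the LUM to FMOD ratio is lower in middle than in post libraries.

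Between the regions of molded tissue, a different set of these genes moved. In post against middle regions, averaged over both mold types, LUM was higher and FMOD, OGN and BGN were lower, so 4 of 8 genes were called, against 8.51% of all tested genes. The log2 fold change was 0.34 for LUM (SE 0.0877, edgeR adjusted p = 0.0191), -0.45 for FMOD (SE 0.0903, adjusted p = 0.00281), -0.38 for OGN (SE 0.0929, adjusted p = 0.0122) and -0.36 for BGN (SE 0.0982, adjusted p = 0.0247). DCN, ASPN, OMD and PRELP had log2 fold changes of -0.12, -0.20, -0.43 and 0.02 and were not called. OGN passed the threshold in both comparisons: its level was higher in molded than in no mold tissue and lower in post than in middle regions.

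LUM measured 7949, 8497 and 8793 CPM in anchored post and 9054, 8489 and 10100 CPM in unanchored post libraries, against 7610, 6090 and 6854 CPM in anchored middle and 6655, 6915 and 7737 CPM in unanchored middle libraries. Every post library lay above every middle library. FMOD ran the other way, with 2584, 1971 and 2751 CPM in anchored post and 2542, 2428 and 2273 CPM in unanchored post, against 3588, 3192 and 3191 CPM in anchored middle and 3500, 3495 and 2948 CPM in unanchored middle libraries. Every post library of FMOD lay below every middle library. Among all tested genes, 4.17% separated the 6 post from the 6 middle libraries in this way. The no mold libraries, which have no regions, had 7709, 9232 and 8189 CPM of LUM and 2964, 2635 and 2347 CPM of FMOD. No mold library 1 thus lay within the middle ranges of both genes and the other two within the post ranges.

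**Figure D4:**
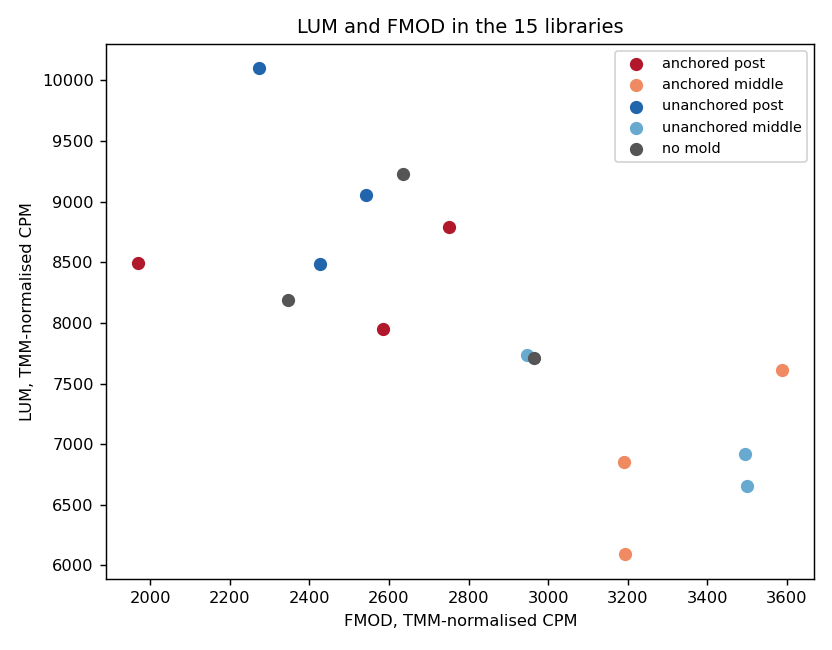
LUM against FMOD, both in TMM-normalised CPM on linear axes that do not start at 0, with 1 point per library coloured by group. The 6 post libraries lie at high LUM and low FMOD, the 6 middle libraries at low LUM and high FMOD, and 2 of the no mold libraries lie among the post libraries.

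The LUM to FMOD ratio averaged 3.53 ± 0.678 in anchored post and 2.06 ± 0.131 in anchored middle libraries. It averaged 3.83 ± 0.526 in unanchored post and 2.17 ± 0.395 in unanchored middle libraries, and 3.20 ± 0.517 in no mold libraries (SD, n = 3 each). FMOD kept its call in every alternative fit. The LUM call was lost without unanchored post library 3 (adjusted p = 0.0646), unanchored middle library 1 (0.0532) or unanchored middle library 2 (0.0619). OGN was no longer called without unanchored middle library 2 (0.0606), and BGN was lost in 6 of the fits that left out 1 library, at adjusted p from 0.0581 to 0.0761. These were anchored post 2, anchored middle 3, unanchored post 1 and 3, and unanchored middle 1 and 2.

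Within 1 mold type the regional differences of FMOD, LUM and BGN were close to the averaged ones, with wider errors. In anchored tissue OGN alone was called, with edgeR's log2 fold change at -0.51 (SE 0.132, adjusted p = 0.0438), which is 1 of 8 genes against 1.92% of all tested genes. That call was lost in 14 of 23 alternatives, among them leaving out anchored post library 1 (adjusted p = 0.173) or 3 (0.224), anchored middle library 2 (0.1) or 3 (0.102), unanchored post library 1 (0.0509) or 2 (0.0555), unanchored middle library 1 (0.0577), or no mold library 1 (0.0566), 2 (0.0547) or 3 (0.0601). FMOD (-0.45, adjusted p = 0.0712) and OMD (-1.25, adjusted p = 0.0548) lay just outside the threshold. In unanchored tissue 0 of the 8 genes were called by edgeR, against 0.448% of all tested genes, while 3 of the 8 and 13.9% of all tested genes had an unadjusted p under 0.05. DESeq2 called 2 of the 8, FMOD and LUM, and its count over all genes is given in the last section. The log2 fold changes there were -0.46 for FMOD (adjusted p = 0.104), 0.38 for LUM (0.176) and -0.37 for BGN (0.232).

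Anchored was set against unanchored tissue last. Averaged over regions, in the middle region, in the post region and as an interaction of anchoring and region, edgeR called 0 of the 8 genes and 0% of all tested genes. Unadjusted p under 0.05 was reached by 1, 2, 0 and 1 of the 8 genes in these 4 comparisons, and DESeq2 called 0 in each. Over all tested genes, the share with an unadjusted p under 0.05 was 5.48% in the average over regions, 3.09% in the middle, 3.84% in the post region and 1.88% in the interaction. A missed threshold does not show that the levels are alike.

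OMD gave the widest difference among the 8 genes between anchored and unanchored middle tissue. It had 4.40, 7.54 and 4.09 CPM in anchored middle libraries, from 33, 21 and 28 counts, against 1.84, 1.42 and 2.09 CPM in unanchored middle libraries, from 13, 9 and 12 counts. The libraries did not overlap, but the share of all tested genes that separate 3 from 3 libraries in this way was not counted. The log2 fold change was 1.45 (SE 0.344, unadjusted p = 0.000323), and its edgeR adjusted p over all tested genes was 1. With no filter on low counts the edgeR adjusted p was 0.00455. That fit also estimated the scaling and the spread of each gene anew. Whether OMD is called thus depends on the filter, and which of these steps moved the value was not tested. In post regions OMD averaged 2.06 ± 0.917 CPM in anchored and 2.29 ± 1.15 CPM in unanchored libraries (SD, n = 3 each). The interaction of anchoring and region had a log2 value of -1.65 (SE 0.524, unadjusted p = 0.00452, edgeR adjusted p = 1).

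Most of the family lies in clusters in the genome, and calls differed between neighbours. In RefSeq's order of protein-coding genes on the cattle assembly ARS-UCD2.0, OGN, OMD, ASPN and ECM2 follow each other, as do EPYC, KERA, LUM and DCN, and FMOD, PRELP and OPTC. Of the first row OGN and ASPN were higher in molded than in no mold tissue, while OMD, which lies between them, and ECM2 were not called. Of the second row DCN was called higher and its neighbour LUM was not called. KERA, on the other side of LUM, was also called higher. It was tested only through molded libraries, where it is high, so the filter partly fixes its direction. Of the third row PRELP was lower and FMOD was not called. EPYC and OPTC, with 25 and 27 counts in all, had too few to be tested, and OMD and KERA had only 212 and 121. ECM2 averaged 8.62 CPM in no mold libraries and from 9.93 (unanchored middle) to 13.4 CPM (unanchored post) in molded groups. A missing call therefore does not show that a gene differs from its neighbour, and the differences between neighbours were not themselves tested.

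Over the 15 libraries, log2 levels of OGN, ASPN and DCN went together, with Pearson's r of 0.95 for OGN and DCN, 0.921 for OGN and ASPN and 0.929 for ASPN and DCN. The no mold libraries stand apart in all 3, and within the 12 molded libraries the values were 0.637, 0.457 and 0.334. In molded libraries LUM ran against BGN (r = -0.90), FMOD (-0.756) and OGN (-0.763), and FMOD ran with BGN (0.76). With group means removed, LUM and BGN had r = -0.688 and LUM and FMOD -0.17. These are descriptions over libraries that share groups and scaling, and no p was computed.

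Among 7106 or 7107 other genes with at least 10 CPM, the closest to OGN over 15 libraries were PNRC2 (r = 0.958), FGF7 (0.954) and CCDC3 (0.951). ASPN was closest to FGF7 (0.979), IKBIP (0.974) and ERGIC2 (0.969), and DCN to ANGPTL5 (0.969), BMS1 (0.963) and FGF7 (0.958). FGF7, a growth factor made by connective tissue cells, was thus among the 3 closest genes of OGN, ASPN and DCN. The no mold libraries stand apart here too: within the 12 molded libraries its r was 0.645 with OGN, 0.822 with ASPN and 0.537 with DCN, and that of BMS1 with DCN was 0.508. LUM was closest to MPC1 (0.945), SRI (0.944) and CTH (0.930), FMOD to TIMP2 (0.921), LRP1 (0.920) and LOXL4 (0.914), and BGN to SEC61A1 (0.955), HSPG2 (0.946) and RCN3 (0.936). For the low genes the closest were RARG (0.895), GNB2 (0.877) and RNPS1 (0.860) for PRELP and DTD1 (0.802), HAUS6 (0.783) and NTHL1 (0.771) for OMD.

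The 10 other members of the family held 6 tested genes. CHAD, which encodes chondroadherin, a cartilage protein that binds cells through integrins, was lower in molded tissue: it averaged 32.6 ± 4.76, 77.6 ± 12.5, 31.0 ± 11.4 and 63.4 ± 20.1 CPM in anchored post, anchored middle, unanchored post and unanchored middle, against 135.4 ± 45.0 CPM in no mold libraries (SD, n = 3 each). Its log2 fold change was -1.53 (SE 0.178, edgeR adjusted p = 4.12e-06). KERA, which encodes keratocan, a keratan sulfate proteoglycan known from the cornea, was called higher (adjusted p = 0.00681) from 119 counts in molded and 2 counts in no mold libraries. Scaled to depth, that is a ratio of 7.3 with a 95% counting interval of 1.98 to 61, and the call was lost without no mold library 2 (adjusted p = 0.071). The highest no mold library had 0.496 CPM, under the filter level of 1.76 CPM, so KERA was tested only through molded libraries, where it is high, and the filter partly fixes its direction. In post against middle regions CHAD (-1.14), PODN (-0.58) and TSKU (-0.36) were lower and none was higher, which is 3 of 6 against 8.51% of all tested genes called in either direction. PODN, which encodes podocan, lost its call at adjusted p from 0.0536 to 0.163 without anchored post library 2, anchored middle library 3, unanchored post library 2 or 3, or unanchored middle library 1 or 2.

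Of 19 tested genes of chondroitin and dermatan sulfate synthesis, CHSY3, a chain-extending enzyme, was higher in molded tissue (log2 0.62, edgeR adjusted p = 0.00119). B4GALT7, an enzyme of the linker to the core protein, was lower (-0.28, 0.0186), a call lost without no mold library 1 (0.057), 2 (0.0695) or 3 (0.104). Each is 1 of 19, against 8.04% of all tested genes called higher and 7.91% called lower. The median of the list was -0.158, against 0 over all tested genes. In post against middle regions XYLT1, which starts the chain (-0.48, adjusted p = 0.000142), and CHPF, which helps to extend it (-0.36, 0.00384), were lower and none was higher, which is 2 of 19 against 8.51% of all tested genes called in either direction. Of 8 tested genes of keratan sulfate synthesis 0 were called between molded and no mold tissue. CHST2, a sulfotransferase, was the 1 gene of the 8 called between regions, against 8.51% of all tested genes. It was lower in post regions (-0.54, edgeR adjusted p = 0.00656). Of 7 tested genes of tyrosine sulfation and sulfate supply 0 were called between molded and no mold tissue. TPST1, which sulfates tyrosines (-0.34, edgeR adjusted p = 0.0121), and the sulfate transporter SLC26A2 (-0.33, 0.0179) were lower in post regions. That is 2 of 7, against 8.51% of all tested genes called in either direction. The SLC26A2 call was lost without unanchored middle library 2 (0.0637).

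Among genes listed for propeptide processing, BMP1, a protease that removes propeptides (log2 -0.30, edgeR adjusted p = 0.0377), and PCOLCE2 (-0.27, 0.0343) were lower in molded tissue. PCOLCE2 is a helper of that cleavage in collagens and is not known to act on these proteoglycans. That is 2 of 3 tested, against 7.91% of all tested genes called lower. MMP2, a gelatinase that also cuts decorin, was higher (0.29, 0.0348), as 1 of 5 tested proteases, against 8.04% of all tested genes called higher. All 3 calls were fragile. Leaving out no mold library 1 ended each of them, at adjusted p of 0.188 for BMP1, 0.0685 for PCOLCE2 and 0.054 for MMP2. No mold library 2 also ended BMP1 (0.196) and MMP2 (0.118), and no mold library 3 ended PCOLCE2 (0.36) and MMP2 (0.17). Single molded libraries ended the BMP1 call (anchored middle 1, unanchored post 1, unanchored middle 2 or 3), the PCOLCE2 call (anchored post 1, anchored middle 3, unanchored post 1, unanchored middle 1 or 2) and the MMP2 call (anchored post 1 or unanchored post 2), at adjusted p from 0.0509 to 0.0608. None of the tested genes of these lists was called between regions.

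Of 14 tested collagens bound by the family, 6 were lower in post than in middle regions and none was higher, against 8.51% of all tested genes called in either direction, with a median log2 fold change of -0.312 against -0.006 over all tested genes. The largest falls were in COL3A1 (-0.66, edgeR adjusted p = 0.000981), COL1A1 (-0.60, 0.0121) and COL5A2 (-0.55, 0.000935). The COL1A1 call was lost without unanchored middle library 2 (0.0538). COL1A1, a chain of type I collagen, averaged 9418 ± 1820 CPM in anchored post and 13860 ± 1370 in anchored middle libraries, and 8141 ± 1810 in unanchored post and 12640 ± 3630 in unanchored middle libraries (SD, n = 3 each). FMOD, OGN and BGN were therefore lower in the same regions as these collagens, and LUM was higher there. Against no mold tissue, COL2A1 (-3.24, edgeR adjusted p = 1.59e-08) and COL11A2 (-2.36, 6.71e-07), both of cartilage fibrils, were lower in molded tissue. That is 2 of 14, against 7.91% of all tested genes called lower, and none of the 14 was higher. COL11A2 had only 188 counts in all 15 libraries. The more abundant COL11A1 was not called, with a mean of 749.8 CPM in no mold libraries. Its means were 714.8 CPM in anchored post, 1049 in anchored middle, 729.3 in unanchored post and 973.5 in unanchored middle libraries.

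Of 11 tested growth factors and receptors that these proteins bind, BMP4 was higher (log2 0.75, edgeR adjusted p = 0.00759) and BMP2 lower (-0.35, 0.0326) in molded tissue. Each is 1 of 11, near the 8.04% of all tested genes called higher and the 7.91% called lower. BMP4 lost its call without no mold library 2 (0.0947) or 3 (0.0518), and BMP2 without no mold library 1 (0.167) or 2 (0.233). TGFB3, the gene of the factor also given in the medium (-0.42, edgeR adjusted p = 0.0437), and LRP1, an endocytic receptor for decorin (-0.38, 0.013), were lower in post regions. That is 2 of 11, against 8.51% of all tested genes called in either direction. The TGFB3 call was lost in 13 of 23 alternatives, at adjusted p up to 0.133, among them leaving out any anchored post library, anchored middle library 2 or 3, unanchored post library 2 or 3, or unanchored middle library 1 or 2. Between anchored and unanchored tissue, averaged over regions, 0 genes of any of these lists were called.

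**Figure D5:**
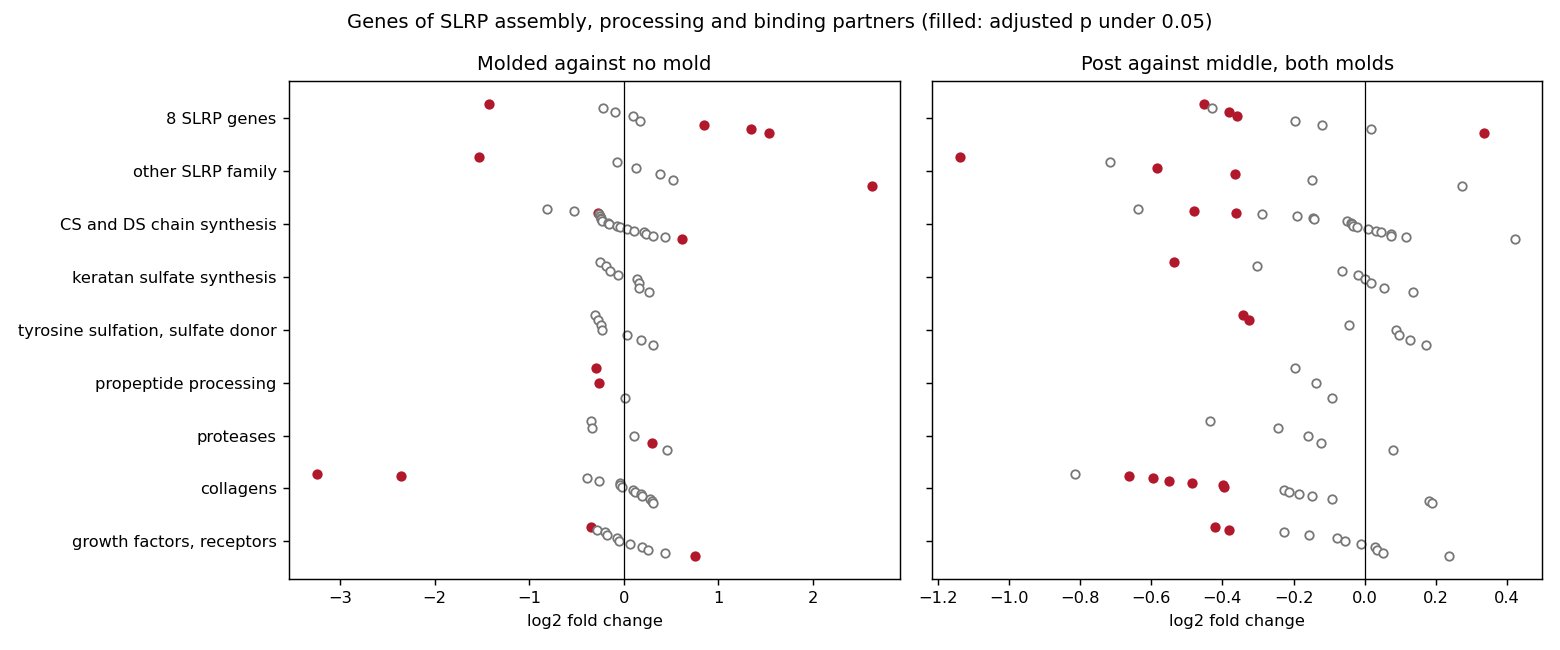
Log2 fold changes from edgeR (x axes) of every tested gene of the 8 genes and of the related lists (rows), filled where the adjusted p is under 0.05. For molded against no mold (left) the keratan sulfate and tyrosine sulfation rows have no filled point. Propeptide processing and collagens are filled only below 0, proteases only above 0, and the other rows on both sides. For post against middle (right) LUM is the single filled point above 0.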

How the data were processed

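Per the labels' protocols, RNA was reverse transcribed with oligo-dT primers that carry a barcode and a molecular identifier, and libraries were made by tagmentation. Tools named in the submitters' processing notes are STAR 2.7, SAMtools 1.21 and featureCounts of Subread 2.1.1. Genome build, annotation, strand setting and use of molecular identifiers: not given in the sources used here. The authors deposited expected counts, which need not be whole, and CPM, which equal the count divided by the library total, times 1e+06. Values that are not whole, as when a read fitting several genes is divided, held 54.2% of the counts of FMOD, 44.4% of DCN, 25.4% of LUM, 21.8% of BGN and 10.3% of OGN; a single divided read makes a value not whole, so the number of reads divided is unknown.

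Expected counts were rounded, 92 spike-in rows were left out, genes were filtered with filterByExpr (count minimum 10, total 15) and scaled by TMM. The quasi-likelihood test, with a mean for each group and all 15 libraries in the model, came from edgeR 4.0.16 in R 4.3.3. It was two-sided, with Benjamini-Hochberg adjustment over 11834 genes and a threshold of 0.05, in 12 comparisons. Log2 levels for correlations used a prior count of 2. The scripts were tested on simulated data. Intervals cover counting error only. Equal replicate numbers were not treated as pairs: 6 of 30 pairs of libraries with the same number had a correlation of deviations over 0.1, against 8 of 60 with different numbers. For post and middle of 1 mold type, same-number pairs had -0.029, 0.079 and 0.138 in anchored and 0.092, 0.107 and 0.264 in unanchored tissue. Pairs with different numbers ran from -0.158 to 0.06 and from -0.169 to 0.062. Whether these libraries share a tissue was not tested. Gene names and order came from RefSeq's table, in which all 8 genes matched.

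The members and the lists were chosen with earlier results of these data known. All 8 members are named in each main comparison, with up to 3 called genes of each other list by size of change, and the 3 genes closest to each member. Genes beyond this rule (KERA counts, FGF7) are described after their values were seen. Alternatives were RLE and upper-quartile factors, no filter, rounding down, a replicate block, the 3 shallowest libraries left out, each library left out, only the groups compared, and DESeq2 1.42.0.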

Additional observations from a re-analysis of the deposited data

How the results depend on the processing

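Over 23 alternatives, 2793 refitted log2 fold changes gave 2671 on the same side of the threshold, 105 that lost and 17 that gained a call, and 0 called values that turned direction; 83 changed sign where neither fit called them. OGN, ASPN and DCN kept their calls between all molded and no mold tissue in every alternative run, and the PRELP call was lost without no mold library 2. Of the 8 genes, leaving out the 3 shallowest libraries gave 2 calls in place of 4 for anchored post and 3 in place of 5 for unanchored post against no mold. With no filter, anchored middle and unanchored middle against no mold gave 6 and 5 calls in place of 4 each. Calls over all genes rose there as well, to 1750 in place of 1575 and to 1916 in place of 1747. For post against middle in anchored tissue, 1 call became 0 with RLE or upper-quartile factors, with the shallowest libraries left out or with only the groups compared, 3 with no filter and 2 with DESeq2. Over all genes RLE factors gave 214 calls there, upper-quartile factors 227, leaving out the shallowest libraries 202 and DESeq2 269, in place of 227. In unanchored tissue, 0 became 1 with no filter or only the groups compared and 2 with DESeq2. For anchored against unanchored middle, 0 became 1 with no filter. Leaving out 1 library gave 3 to 5 calls for unanchored post against no mold, 1 to 4 for post against middle averaged over molds, 0 to 2 in anchored and 0 to 1 in unanchored tissue. The causes were not tested.

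Over all genes, leaving out the 3 shallowest libraries cut the calls between molded and no mold tissue to 335 in place of 1888, and to 82 in place of 658, 411 in place of 1575, 170 in place of 1068 and 421 in place of 1747 for anchored post, anchored middle, unanchored post and unanchored middle tissue; it removes 2 of the 3 no mold libraries, so the spread of the single remaining library is taken from the other groups. Leaving out 1 library gave 856 to 2297 calls for molded against no mold (lowest without no mold 3), 251 to 951, 768 to 1861, 496 to 1403 and 790 to 2061 for those 4 groups (each lowest without no mold 3), 465 to 1150 in place of 1007 for post against middle (lowest without unanchored middle 2), 62 to 283 in anchored tissue (lowest without anchored post 3) and 3 to 159 in unanchored tissue (lowest without unanchored middle 2, highest without anchored middle 2). For post against middle in anchored tissue, 227 calls became 479 with no filter and 105 with only the groups compared; in unanchored tissue 53 became 272 with no filter, 148 without the shallowest libraries, 192 with only the groups compared and 125 with DESeq2. With no filter, 0 calls became 66, 28, 21 and 3 for anchored against unanchored averaged, in the middle, in the post and for the interaction. The replicate block gave 4 of 8 genes for molded against no mold and 4 for post against middle averaged over molds, as without it. For post against middle in anchored tissue the block gave 1, also as without it. Over all genes these 3 fits called 1877, 1022 and 273. The block gives each replicate number 1 effect shared by all 5 groups. It therefore cannot show whether post and middle libraries of 1 mold type are pairs. Depth limits PRELP and OMD, with 144 and 212 counts in all.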
